A study of Rattus norvegicus with 2 samples.

Results

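The microRNAs (miRNAs) described here are those whose genes lie inside Htr2c, the X-linked gene of the serotonin receptor 5-HT2C. They were taken as every row of the deposited table named miR-764, miR-1912, miR-1911, miR-1264, miR-448 or miR-1298, with either arm. Of the 390 rows 4 met this rule, namely rno-miR-764-3p, rno-miR-1912-3p, rno-miR-448-3p and rno-miR-448-5p. They cover 3 of the 6 miRNA numbers in the rule. The rat reference used here places no miR-1911 or miR-1264 gene within Htr2c. The table counted small RNA reads from the hippocampus of Wistar rats aged 5 months. The experimental group had status epilepticus (SE, continuous seizure activity) after stimulation of the right amygdala for 20 min and was sampled at 24 hours. The control group had the same electrode surgery, with sham stimulation according to the labels and no stimulation according to the methods. RNA was taken from the left hippocampus and pooled within each group. Thus 1 library per group was sequenced, and no sequencing value below has a replicate check.

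A miRNA is cut from the arms of a hairpin-shaped precursor, and the arm that enters the silencing complex pairs with messenger RNAs mainly through its seed, bases 2 to 8. When the precursor lies in an intron of a protein-coding gene it is commonly transcribed with that host gene. Htr2c is a receptor gene known for very high expression in the choroid plexus, the epithelium that makes cerebrospinal fluid, and for expression in neurons of the hippocampus and other regions. In whole tissue, a change in the number of cells of a type cannot be told apart from a change in the RNA of each cell.

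The mature sequences of the counted members are shown because the 4 rows carry 4 different seeds, given in capitals (RefSeq, build GRCr8, plus strand).

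rno-miR-764-3p, chrX:115490702-115490724: gAGGAGGCcauaguggcaacugu
rno-miR-1912-3p, chrX:115498072-115498090: cACAGAACaugcagugaga
rno-miR-448-5p, chrX:115641967-115641988: aACAUCCUgcauagugcugcca
rno-miR-448-3p, chrX:115642026-115642046: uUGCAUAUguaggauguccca

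Among 693 rat mature miRNAs of the reference, none other than the member itself carried any of these seeds. The members were 19 to 23 bases long. Of the 23 bases of miR-764-3p 13 were G or C, against 9 of 19 in miR-1912-3p, 11 of 22 in miR-448-5p and 9 of 21 in miR-448-3p.

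The precursors are printed with their annotated mature arms in capitals, to show which arm each count belongs to (RefSeq, build GRCr8, plus strand).

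Mir764, chrX:115490638-115490745: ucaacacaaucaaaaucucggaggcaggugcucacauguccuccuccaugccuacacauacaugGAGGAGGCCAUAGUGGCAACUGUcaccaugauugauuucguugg
Mir1912, chrX:115498019-115498106: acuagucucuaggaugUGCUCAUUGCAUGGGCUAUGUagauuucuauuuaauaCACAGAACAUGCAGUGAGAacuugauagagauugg
Mir448, chrX:115641955-115642066: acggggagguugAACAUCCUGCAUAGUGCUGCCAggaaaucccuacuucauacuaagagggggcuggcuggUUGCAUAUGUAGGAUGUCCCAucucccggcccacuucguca

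All 3 precursors lie within Htr2c on its strand. The reference used here gives gene ends and no exons, so that their intronic position rests on the description of the cluster. Mir764 and Mir1912 are neighbours, 7.27 kb apart, whereas Mir448 lies 144 kb beyond Mir1912 in the direction of transcription. The folded precursors had a predicted free energy of -48.2 kcal/mol for Mir764, -37.0 kcal/mol for Mir1912 and -51.7 kcal/mol for Mir448. Mir1298 lies between Mir1912 and Mir448, and Mir3552 1.77 kb before Mir764. Neither these nor miR-1912-5p had a row, and they were not analysed here.

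The counts in the table summed to 5678090 in the experimental and 6703056 in the control library. Levels below are counts per 1000000 clean reads (CPM), in which 1 count equals 0.138 CPM in the experimental and 0.114 CPM in the control library. Each row of the table had at least 8 counts in one of the libraries. Intervals are 95% exact intervals (Poisson for a level, Clopper-Pearson for a ratio or a share) and cover counting error only. Of 5 markers of hippocampal neurons 4 had a row and miR-9a-5p had none under that name. Their levels ran from 53.0 to 29610 CPM after SE and from 32.4 to 40551 CPM in the control library. The log2 ratio was 1.09 for miR-124-3p, 0.71 for miR-132-3p and 0.46 for miR-138-5p, with intervals above 0. It was -0.45 for miR-128-3p, with an interval below 0, and the median of the 4 was 0.59 (0.32 with unscaled copies). Of the 285 rows with at least 30 counts in either library, 40.4% had an interval above 0 and 22.8% below 0. Their median was 0.10 (-0.17 with unscaled copies).

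The Htr2c miRNAs did not rise to one common extent after SE. The rarer members, miR-764-3p and miR-1912-3p, were 4.22-fold and 2.24-fold higher in the experimental library. The abundant member, miR-448-3p, was 1.27-fold higher, and its partner arm miR-448-5p was too rare for a change to be detectable. These are differences between the libraries and not tested differences between the conditions.

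MiR-764-3p, from the 3p arm of the precursor nearest to the start of Htr2c among those counted, was counted 35 times after SE and 10 times in the control library. Its level was 4.83 CPM (interval 3.37 to 6.72) against 1.14 CPM (interval 0.549 to 2.10), and these intervals did not overlap. The log2 ratio was 2.08, with an interval from 1.03 to 3.26 (two-sided Fisher's exact test, Benjamini-Hochberg adjusted over 390 rows, p = 4.7e-05). This miRNA is one of those the study selected from these same libraries, so that its rise in these counts is not independent evidence. The study also measured it by quantitative PCR, with replicates in each group, and reported a significant rise at the same time after SE. Those PCR values were not among the data analysed here.

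MiR-1912-3p, likewise a 3p arm, was counted 76 times after SE and 41 times in the control library. Its level was 10.5 CPM (interval 8.27 to 13.1) against 4.69 CPM (interval 3.37 to 6.37), again without overlap. The log2 ratio was 1.16 (95% interval 0.59 to 1.75; two-sided Fisher's exact test, adjusted p = 7.6e-05).

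MiR-448-3p was counted 3503 times after SE and 3315 times in the control library. The level was 484 CPM (interval 468 to 500.0) against 379 CPM (interval 367 to 393). At this depth the counting error was small, and the log2 ratio of 0.35, a small change, was narrowly bounded by 0.28 and 0.42 (two-sided Fisher's exact test, adjusted p = 9.4e-23). It lay 0.25 above the median log2 ratio of 0.10 over the 285 rows with at least 30 counts in either library. Unscaled copies lowered it to 0.08 (interval 0.01 to 0.15).

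MiR-448-5p, the other arm of the same hairpin, was counted 8 times in each library. The levels of 1.10 CPM (interval 0.477 to 2.18) and 0.916 CPM (interval 0.395 to 1.80) overlapped almost wholly. The log2 ratio of 0.27 had an interval from -1.34 to 1.88 (Fisher's exact test, adjusted p = 0.87), which spans both a fall and a rise.

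**Figure D1:**
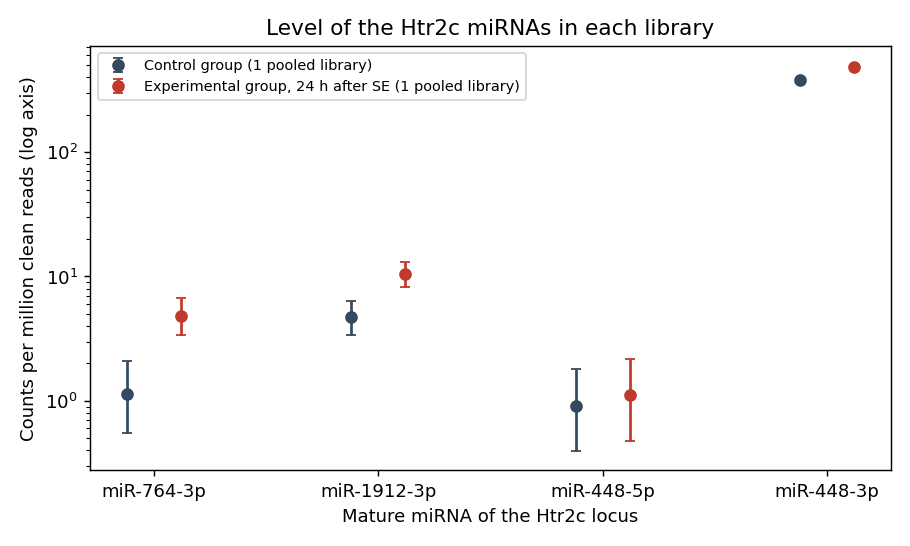
Level of each Htr2c miRNA in the control (dark) and experimental (red) library, in CPM on a log axis. Points are 1 pooled library each and bars are 95% exact Poisson intervals; the bars of the libraries are apart for miR-764-3p, miR-1912-3p and miR-448-3p (where they are smaller than the points) and overlap for miR-448-5p.

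Of the 3 members with at least 30 counts in either library, all 3 had an interval above 0, as did 40.4% of the 285 rows with this depth. A log2 ratio above 1 was found for 2 of the 3, against a background of 10.2%, and a ratio above 2 for 1 of the 3, against 3.16%. Of all 390 rows 34.1% had an adjusted p under 0.05 and were higher after SE, as were 3 of the 4 members. With so few members these counts are given as a description. MiR-764-3p ranked 8 and miR-1912-3p 23 of 285 by log2 ratio, whereas miR-448-3p ranked 100. MiR-764-3p met the minimum of 30 counts only through the experimental library, with 35 counts against 10. A minimum met in either library favours rare rows with large ratios, so that its rank and its part in these counts are descriptive only.

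**Figure D2:**
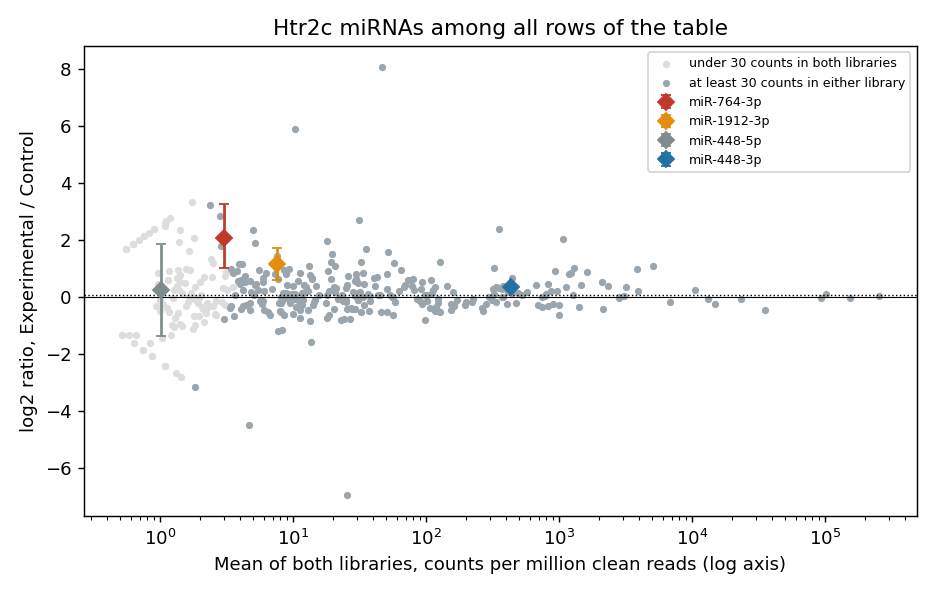
Log2 ratio of the experimental to the control library against the mean level in CPM (log axis) for all 390 rows, light grey where both libraries had under 30 counts. The diamonds are the Htr2c miRNAs with 95% exact intervals and the dotted line is the median of 0.10; miR-764-3p at 2.08 and miR-1912-3p at 1.16 sit at low levels, and miR-448-3p at 0.35 sits among the more abundant miRNAs.

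Whether the members differed from each other was tested by the exact test of member by library, which no scaling of the libraries can alter. The 6 pairs of members were compared, with p-values adjusted over the 6. The rise of miR-764-3p exceeded that of miR-448-3p by 1.73 on the log2 scale (95% interval 0.68 to 2.91; two-sided Fisher's exact test, adjusted p = 0.0027). For miR-1912-3p the excess over miR-448-3p was 0.81 (95% interval 0.24 to 1.40; two-sided Fisher's exact test, adjusted p = 0.011). Between these libraries the 3p arms of the neighbours Mir764 and Mir1912 thus rose more than the 3p arm of the distant Mir448. The p-values cover counting error only, and miR-764-3p had been selected by the study from these same libraries. An effect of position in the gene was not tested.

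Between miR-764-3p and miR-1912-3p the difference of 0.92 was not resolved (95% interval -0.31 to 2.23; two-sided Fisher's exact test, adjusted p = 0.20). The arms of Mir448 differed by -0.08 (5p minus 3p), with an interval from -1.69 to 1.53. Against miR-448-5p, miR-764-3p differed by 1.81 (95% interval -0.19 to 3.78; two-sided Fisher's exact test, adjusted p = 0.11) and miR-1912-3p by 0.89 (95% interval -0.84 to 2.61; two-sided Fisher's exact test, adjusted p = 0.33). The 8 counts of miR-448-5p in each library leave these 3 intervals wide, and they do not show that the members moved alike.

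**Figure D3:**
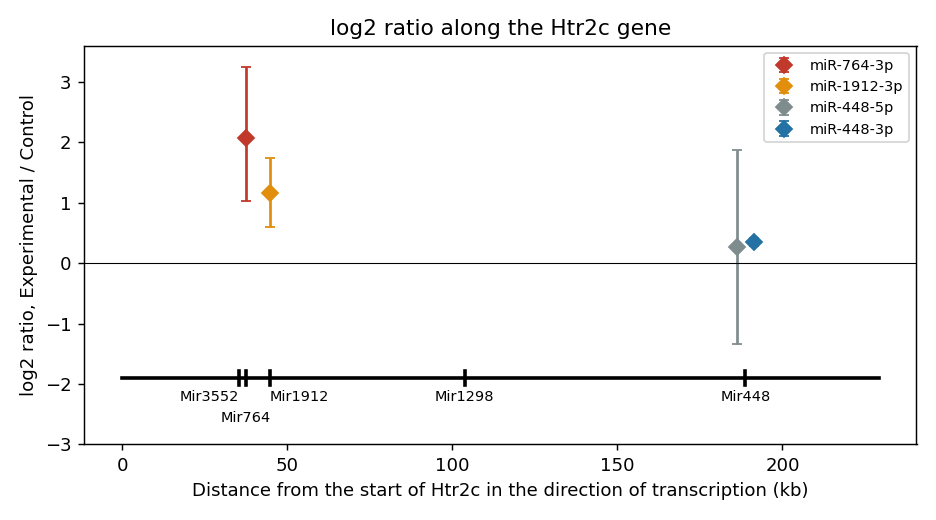
Log2 ratio of each counted miRNA against the distance of its precursor from the start of Htr2c in kb, with 95% exact intervals. The black line is the gene and its ticks are the miRNA genes (those of miR-448-5p and miR-448-3p coincide and were drawn apart); the ratios of 2.08 and 1.16 belong to the adjacent precursors and the ratios of 0.27 and 0.35 to Mir448.

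The order of the levels was the same in both libraries, with miR-448-3p first, then miR-1912-3p, miR-764-3p and miR-448-5p. MiR-448-3p made up 98.3% of the counts of the 4 rows in the control library (interval 97.8 to 98.7) and 96.7% after SE (interval 96.1 to 97.3). The share of miR-764-3p was 0.296% (interval 0.142 to 0.544) in the control library and 0.966% (interval 0.674 to 1.34) after SE. That of miR-1912-3p was 1.22% (interval 0.873 to 1.64) and 2.10% (interval 1.66 to 2.62). The rarest member, miR-448-5p, made up 0.237% (interval 0.102 to 0.467) and 0.221% (interval 0.095 to 0.435). The shares of miR-764-3p and miR-1912-3p were thus higher after SE and that of miR-448-3p was lower, whereas no change in that of miR-448-5p was detectable, and miR-448-3p remained by far the most abundant.

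In the control library 332 counts of miR-448-3p (interval 180 to 692) were found for each count of miR-764-3p, and after SE 100.1 (interval 71.8 to 144). For each count of miR-1912-3p there were 80.9 counts of miR-448-3p (interval 59.5 to 113) and 46.1 after SE (interval 36.7 to 58.6). The 3p arm of Mir448 exceeded its 5p arm 414-fold (interval 210.1 to 961) in the control library and 438-fold (interval 222 to 1015) after SE, so that no change in arm use was detectable. MiR-764-3p and miR-448-5p, the least abundant members, were not resolved in the control library, at a ratio of 1.25 (interval 0.444 to 3.64), and differed after SE, at a ratio of 4.38 (interval 1.99 to 10.9).

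Because of this composition, a sum over the cluster mostly repeats miR-448-3p. The 4 rows together were counted 3622 times after SE and 3374 times in the control library, which gave a summed log2 ratio of 0.37 (interval 0.31 to 0.44). MiR-764-3p and miR-1912-3p alone summed to 111 and 51 counts, with a summed log2 ratio of 1.39 (interval 0.90 to 1.90).

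The choice of scaling moved all members by the same amount. Across the 6 scalings the log2 ratios lay between 1.81 and 2.08 for miR-764-3p, between 0.89 and 1.16 for miR-1912-3p, between 0.08 and 0.35 for miR-448-3p and between 0 and 0.27 for miR-448-5p. With TMM (0.98) and with unscaled copies (0.89) miR-1912-3p fell below a log2 ratio of 1. Assuming variation between pooled libraries beyond counting error removed most of the calls. Under a coefficient of variation set to 0.2, the exact test of edgeR gave an adjusted p of 0.023 for miR-764-3p, 0.14 for miR-1912-3p and 0.80 for miR-448-3p, and with 0.4 none of the 3 passed (adjusted p of 0.43 for miR-764-3p).

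**Figure D4:**
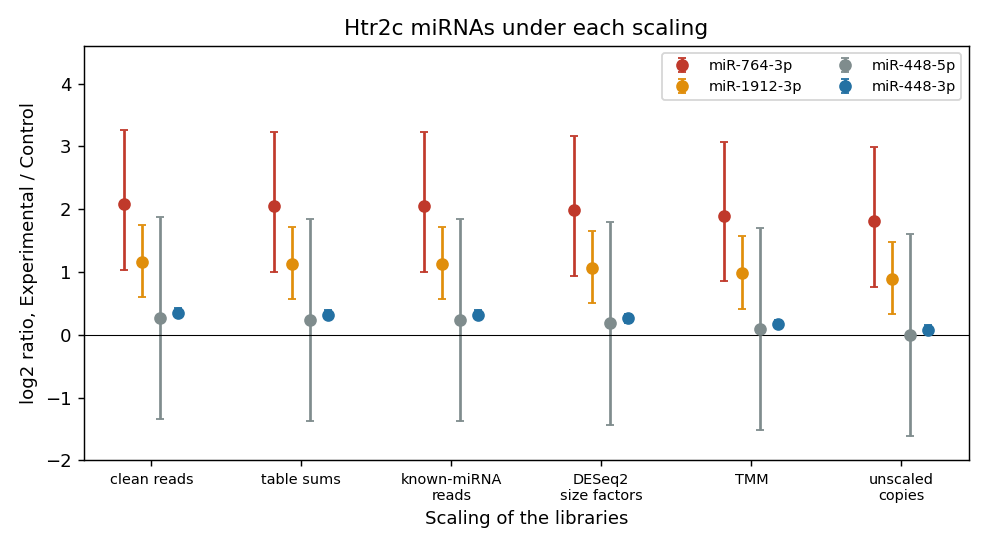
Log2 ratio of each Htr2c miRNA with 95% exact intervals under the 6 scalings of the libraries. The values fall together from the clean reads to unscaled copies, by 0.27, and the intervals of miR-764-3p and miR-1912-3p stay above 0 throughout.

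MiR-448-3p shares bases 2 to 7 with one other rat miRNA, miR-153-3p, a brain miRNA that lies in a different gene. The sequences are set side by side with these 6 bases in capitals.

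rno-miR-448-3p: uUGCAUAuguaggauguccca
rno-miR-153-3p: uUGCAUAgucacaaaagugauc

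MiR-153-3p was counted 208 times after SE and 64 times in the control library, a rise of 1.97 on the log2 scale (interval 1.56 to 2.40). In a comparison added after the values had been seen, the ratio of miR-448-3p was lower by 1.62 (interval of the difference -2.05 to -1.20; Fisher's exact test, unadjusted p = 8.2e-17). MiR-448-3p nevertheless stayed the more abundant of the pair, at 484 CPM against 28.7 CPM after SE. No other mature miRNA of the reference shared bases 2 to 7 with miR-764-3p, miR-1912-3p or miR-448-5p.

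The known miRNAs with the most similar log2 ratios were sought among 260 others with at least 30 counts, which measures likeness over 2 libraries only. For miR-764-3p they were miR-598-3p (2.04), miR-153-3p (1.97) and miR-150-3p (1.91). Those nearest to miR-1912-3p were miR-770-5p (1.16), miR-219-1-3p (1.17) and miR-212-5p (1.22), the last of them from the activity-regulated miR-132 and miR-212 locus. For miR-448-3p they were miR-877 (0.35), miR-26a-5p (0.35) and miR-204-5p (0.36). The nearest to miR-448-5p were miR-29b-2-5p (0.27), miR-139-5p (0.27) and miR-99b-5p (0.28).

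Since Htr2c is a gene of the choroid plexus, miRNAs known from choroid plexus epithelium and ciliated ependyma were examined beside it. Of a list of 10, 7 had a row, and miR-211-5p, miR-211-3p and miR-449c-5p had none. MiR-204-5p, which lies in the channel gene Trpm3 and is abundant in choroid plexus, was counted 942 times after SE and 887 times in the control library, a rise of 0.36 on the log2 scale (interval 0.22 to 0.49). For its other arm, miR-204-3p, the counts were 736 and 828 and the log2 ratio was 0.10 (interval -0.04 to 0.25).

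The ratio of miR-448-3p was thus near that of miR-204-5p, and those of miR-764-3p and miR-1912-3p were above both arms of miR-204. Among the miRNAs of multiciliated cells, the log2 ratio was 1.02 for miR-34c-5p (12579 and 7462 counts, interval 0.98 to 1.07) and 0.83 for miR-34b-5p (275 and 186 counts, interval 0.56 to 1.11). MiR-449a-5p had 25 counts in each library (log2 ratio 0.27, interval -0.59 to 1.13). No change was resolved for miR-34b-3p (28 and 20 counts, log2 ratio 0.76, interval -0.12 to 1.66) or miR-34c-3p (6 and 15 counts, log2 ratio -1.05, interval -2.70 to 0.40).

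The list summed to 2015 CPM after SE and 1079 CPM in the control library, and to 278 and 224 CPM without miR-34c-5p, which neurons also express. Of its 4 members with at least 30 counts, 3 had an interval above 0, beside 40.4% of all rows of this depth. Their median log2 ratio was 0.60, against 0.10 over the 285 rows of this depth. With unscaled copies these medians were 0.33 and -0.17, with TMM 0.42 and -0.08, and with a minimum of 10 counts 0.36 and 0.09. The part of choroid plexus tissue in the levels of the Htr2c miRNAs was not tested.

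Other genes that neurons express and that hold miRNAs gave a mixed picture. This list is not separate from those above, since miR-204-5p and miR-204-3p are also choroid plexus markers and miR-128-3p is also a neuron marker. Of 14 such host genes, 11 had a strand in the reference and could be matched. Among the matched genes, 7 held miRNAs of the table on their own strand, 12 miRNAs in all. With at least 30 counts there were 11, of which 4 had an interval above 0 and 3 below 0, beside 40.4% and 22.8% of all rows of this depth. Their median log2 ratio was 0.18 (-0.09 with unscaled copies), against 0.10 over those rows (-0.17). MiR-153-3p of Ptprn2 was the one with a ratio above 1. MiR-139-3p and miR-139-5p of the phosphodiesterase gene Pde2a, with 0.30 and 0.27, lay near miR-448-3p. MiR-204-5p (0.36) also had an interval above 0, while those of miR-204-3p (0.10), miR-128-2-5p (0.18) and miR-488-5p (0.45) included 0.

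Below 0 were miR-488-3p of the neuronal gene Astn1 (-0.83), miR-128-3p of Arpp21 and R3hdm1 (-0.45) and miR-218a-5p (-0.40). MiR-218a-5p has a gene in the axon guidance gene Slit3 and another gene copy that was not placed in a host gene. The interval of miR-218a-2-3p (-0.44) ended just above 0. The intervals of miR-764-3p and miR-1912-3p lay above those of 9 of the 11 and overlapped those of miR-153-3p and miR-488-5p. The matching share over all rows of this depth was not counted, and their median of 0.10 also lay below both intervals. The count is thus no contrast particular to these host genes.

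Of the 30 other known miRNAs that are encoded only on chromosome X, 19 had at least 30 counts. An interval above 0 was found for 8 and one below 0 for 4, shares near the 40.4% and 22.8% of all rows of this depth. Their median log2 ratio was 0.30 (0.03 with unscaled copies). The highest was miR-500-3p, at 1.81 (32 and 11 counts, interval 0.79 to 2.95), and the lowest was miR-532-3p, at -0.63 (38 and 71 counts, interval -1.24 to -0.04). Both of these lie in Clcn5, a chloride transporter gene, and their intervals did not overlap. Under the minimum of 30 counts, miR-361-3p (2.49, 14 and 2 counts) and miR-542-5p (2.36, 17 and 4 counts) had higher ratios than miR-500-3p, with wide intervals.

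**Figure D5:**
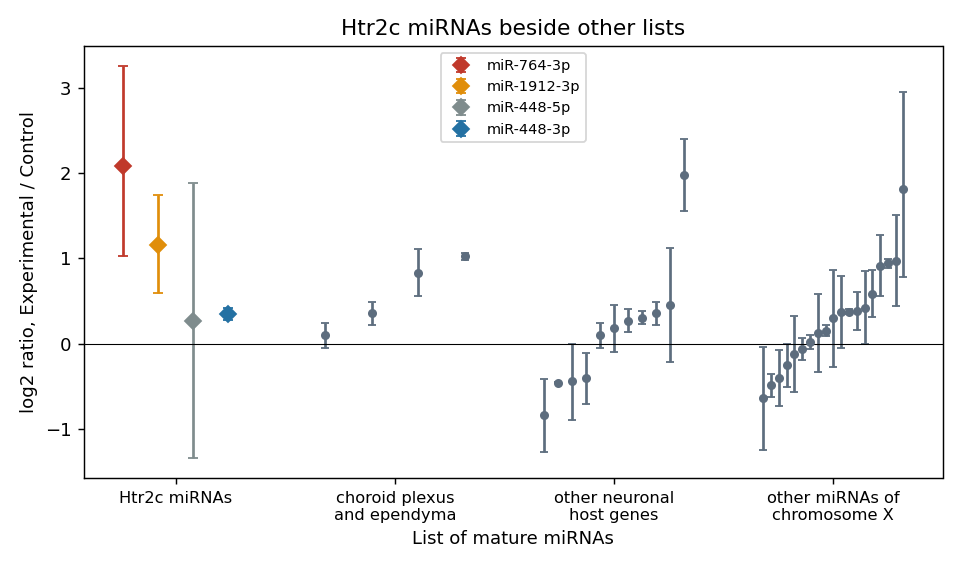
Log2 ratio with 95% exact intervals of the 4 Htr2c miRNAs (diamonds) beside the members of 3 lists that had at least 30 counts (circles, 4, 11 and 19 miRNAs, ordered by ratio). MiR-764-3p at 2.08 is the highest of the plotted ratios, and miR-448-3p at 0.35 stands within the range of each list. The minimum was not applied to the Htr2c miRNAs. It left out miR-361-3p (2.49) and miR-542-5p (2.36) of chromosome X, the only list members with higher ratios.

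The spread of ratios within a host gene was set beside that of other host genes, a comparison added after the values had been seen. Only the 297 of 328 known miRNAs matched by name to the reference could be placed. Counting those with at least 30 counts and no gene copy outside the host, 5 protein-coding genes held rows from 2 or more precursors. Rows without a match are missing, so that the genes may be too few and the spans too narrow. The span from the lowest to the highest log2 ratio was 1.73 in Htr2c. It was wider in 2 genes, Clcn5 (2.44, 3 rows) and Spaca6 (1.86, 5 rows, the miR-99b, let-7e and miR-125a group), and narrower in 2, Aopep (1.14, 4 rows of miR-23b and miR-27b) and Mcm7 (0.64, 3 rows of miR-25 and miR-93). These spans include both arms of a hairpin where both were counted, while that of Htr2c contains one arm per precursor.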

How the data were processed

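Small RNA libraries of pooled hippocampal RNA, 1 per group, were analysed. The authors deposited unscaled whole-number counts of reads per miRNA, after removing reads of low quality, short reads and sequences read once. The submitters' processing notes name the build rn5, while the aligner and the miRBase release are not given in the sources used here. Deposited columns of p-values hold the authors' own comparison and were not used. The labels describe an array extract and another sequencer than the methods, which were followed.

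Counts were divided by the clean reads the study states for each library, since the table holds part of each library. Every row was compared by a two-sided Fisher's exact test of its count against the remaining clean reads, with Benjamini-Hochberg adjustment over 390 rows. The quasi-likelihood test of edgeR could not be fitted without replicates. Counts under 3 were set to 3 for ratios, which concerned no member. The design expected 2 members, and all 4 rows found were used. The named miRNAs were the members, any sharing a seed, the 3 nearest to each member by log2 ratio, the choroid plexus list, host-gene miRNAs with at least 30 counts and the extremes of chromosome X. The neuron markers serve as the tissue check. The comparison of miR-448-3p with miR-153-3p and the spans within host genes were added after the values were seen. Members and lists were chosen with earlier results of these data known. Names of 297 of 328 known miRNAs matched RefSeq (GRCr8), and 11 of 14 host genes had a strand there.

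Alternatives were 5 other scalings, a pseudocount of 1, minimums of 10, 100 or no counts, known miRNAs only, and the exact test of edgeR under a coefficient of variation set to 0.2 or 0.4. The procedure was tested on simulated data. Software was Python 3.11.15, scipy 1.17.1, R 4.3.3, edgeR 4.0.16, DESeq2 1.42.0 and RNAfold 2.7.2.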

Additional observations from a re-analysis of the deposited data

How the results depend on the processing

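No paired analysis was possible because the groups hold a single library each, and no replicate could be left out. No member changed direction under any alternative, although with unscaled copies miR-448-5p was exactly level. With edgeR's exact test the log2 ratios barely moved but calls were lost, for miR-764-3p (2.06) with a coefficient of variation set to 0.4 and for miR-1912-3p (1.16) and miR-448-3p (0.35) with 0.2 and 0.4, because the assumed variation widens the error. The number of members with an interval above 0 was 1 with at least 100 counts, since fewer members remain. The number above a log2 ratio of 1 was 0 with at least 100 counts and 1 with unscaled copies or TMM. Over the table, 47, 18 and 53 rows lay above 1 with at least 10, at least 100 or no minimum of counts, and 16 with unscaled copies, against 29. Above 2 lay 22, 5 and 22 rows, against 9. With unscaled copies an interval above 0 was found for 66 rows in place of 115 and for 1 miRNA of the other neuronal host genes in place of 4. A further list held the other miRNAs whose genes all lie in protein-coding host genes of any kind. Of its 68 miRNAs with at least 30 counts, 26 (38.2%) had an interval above 0 and 18 had one below 0. Over all rows of this depth the shares were 40.4% above and 22.8% below. With unscaled copies 15 of the list were above 0 in place of 26. The differences between members kept their side of the threshold with a pseudocount of 1. The control counts of 10 and 41 limit miR-764-3p and miR-1912-3p, and the 8 counts per library limit miR-448-5p.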
